A study of Mus musculus with 18 samples.

Results

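A group of 10 transcription factors and chromatin proteins that mark pluripotent cells in general was followed across the RNA-seq samples: Pou5f1, Sox2, Sall4, Sall1, Utf1, Zfp281, Dppa4, Dppa2, Sox15 and Rex2. They were taken by symbol and not by a threshold on their values, because both naive and primed cells are known to express factors of this kind. All 10 were found among the 49671 genes of the count table, and all 10 passed the filter on low counts in both cell lines. Wild-type E14 ES cells, a mouse line used here at passage 20, were embedded in Matrigel and grown for 48 h in N2B27 medium with 1 of 4 additions. These were the solvent DMSO, 3 µM CHIR99021 (CH, an inhibitor of Gsk3 that stabilises β-catenin), 2i (3 µM CHIR99021 with 0.4 µM of the Mek inhibitor PD0325901), or 12 ng/ml Fgf2 with 20 ng/ml Activin A. The other cells were Esrrb fl/fl ES cells at passage 25, in which a tamoxifen-inducible Cre removes the floxed Esrrb alleles and whose strain is labelled Acr-EGFP transgenic mice. They were left untreated (Esrrb floxed) or received 4OHT for 1 day (Esrrb null), and both groups were then grown for 24 h in 3D with 3 µM CHIR99021. Each of the 6 groups had 3 samples, and all cells had been kept in 2i/Lif beforehand. E14 and Esrrb fl/fl cells differed in line, passage and time in 3D, so their levels are set side by side and were not tested against each other.

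Oct4, the product of Pou5f1, and Sox2 bind DNA as partners on composite elements and hold the pluripotent network together. Sox2 belongs to the SOXB1 group with Sox1 and Sox3, and Sox15 is a more distant SOX protein that can also pair with Oct4. Sall4 and Sall1 are zinc finger proteins that recruit the NuRD deacetylase complex, Zfp281 is a zinc finger factor that interacts with NuRD as well, Utf1 is a chromatin-bound protein of undifferentiated cells, and the neighbouring genes Dppa2 and Dppa4 encode SAP domain proteins that bind open, CpG-rich promoters. Rex2 is a gene of a cluster of KRAB zinc finger genes.

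The E14 libraries held 25388139 to 37158661 counts and the Esrrb fl/fl libraries 19915222 to 20140699. Replicate 1 stood apart in every group. The chi-square statistic per gene between replicate 1 and another replicate of its group was 34.1 to 75.9 in E14 and 13.04 to 16.7 in Esrrb fl/fl cells, against 3.12 to 9.60 and 1.48 to 2.35 between replicates 2 and 3. No pair of libraries agreed within sampling noise, for which the statistic is near 1. Values without replicate 1 of every group are therefore given for the members that differed most. Such fits keep only replicates 2 and 3, which lie close together, so their p-values leave out the spread that replicate 1 shows. All 8 markers of ES cell identity reached a mean of 1 CPM (counts relative to the library total, scaled between libraries by TMM) or more in every group. The labels do not say whether replicates were separate cultures, so p-values measure the spread between these samples, which may be technical. These are bulk samples, in which fewer cells with a transcript and less of it per cell cannot be told apart.

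The promoters of 3 members are shown because their genes followed 3 courses in the data: Sox2 was higher in CH and 2i than in DMSO and Fgf2/Activin, Utf1 was lower, and Pou5f1 differed least of the 3. Each is the stretch of 250 bases before the RefSeq transcription start in GRCm38.p6, on the plus strand, at chr3:34649745-34649994 for Sox2, chr7:139943606-139943855 for Utf1 and chr17:35505782-35506031 for Pou5f1. Capitals mark the core of the octamer bound by Oct4 (ATGCAAA) and the GC box (GGGCGG, or CCGCCC where it lies on the opposite strand).
Sox2: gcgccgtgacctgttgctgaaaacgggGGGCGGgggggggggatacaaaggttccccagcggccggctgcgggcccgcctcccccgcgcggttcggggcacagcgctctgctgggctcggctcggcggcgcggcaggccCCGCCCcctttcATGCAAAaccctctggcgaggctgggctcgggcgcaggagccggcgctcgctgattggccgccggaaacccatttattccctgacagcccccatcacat
Utf1: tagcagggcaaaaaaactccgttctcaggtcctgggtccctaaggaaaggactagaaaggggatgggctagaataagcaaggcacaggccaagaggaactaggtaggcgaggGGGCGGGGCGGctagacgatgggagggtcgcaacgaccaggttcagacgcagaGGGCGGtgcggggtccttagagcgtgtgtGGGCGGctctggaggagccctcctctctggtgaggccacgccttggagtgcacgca
Pou5f1: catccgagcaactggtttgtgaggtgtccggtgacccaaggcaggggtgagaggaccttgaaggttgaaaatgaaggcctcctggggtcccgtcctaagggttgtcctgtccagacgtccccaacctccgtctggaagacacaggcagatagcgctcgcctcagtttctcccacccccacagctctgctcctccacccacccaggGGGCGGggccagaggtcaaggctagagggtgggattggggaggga
Of the 10 members, 7 had a promoter window in the RefSeq table, which for Sall1 and Pou5f1 holds more than 1 start. Windows of 300 bases, which add 50 bases after the start, were searched on both strands. Sox2 was the only member with the octamer core, 99 bases before its RefSeq start, against 4.63% of all 32851 windows. The gene positions given below are from GENCODE vM21, whose starts differ. There Sox2 starts further downstream, at 34650405, so the octamer lies further from that start. Utf1 and Pou5f1 start further upstream there, at 139943789 and 35506018, so their printed stretches run past those starts. The SOX motif CATTGTT, held by 3.78% of windows, lay on the opposite strand 159 bases before a second start of Pou5f1. The TCF motif CTTTGAT and the Esrrb half-site AAGGTCA were found in 3.73% and 4.72% of all windows and in none of the members'. GC boxes were found in 6 of the 7 members, which together have 10 windows, against 35.7% of single windows, so the 2 are not like shares. The members' windows held 42.3% to 79.7% G and C, against a median of 52.7% over all windows. Only those of Rex2 and the second start of Pou5f1 lay below that median. Utf1 had 4, of which a pair overlap by 1 base, Sox2 had 2 and the first Pou5f1 window had 1. A match of letters is a description and not a binding site, and elements outside these windows were not searched.

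**Figure D1:**
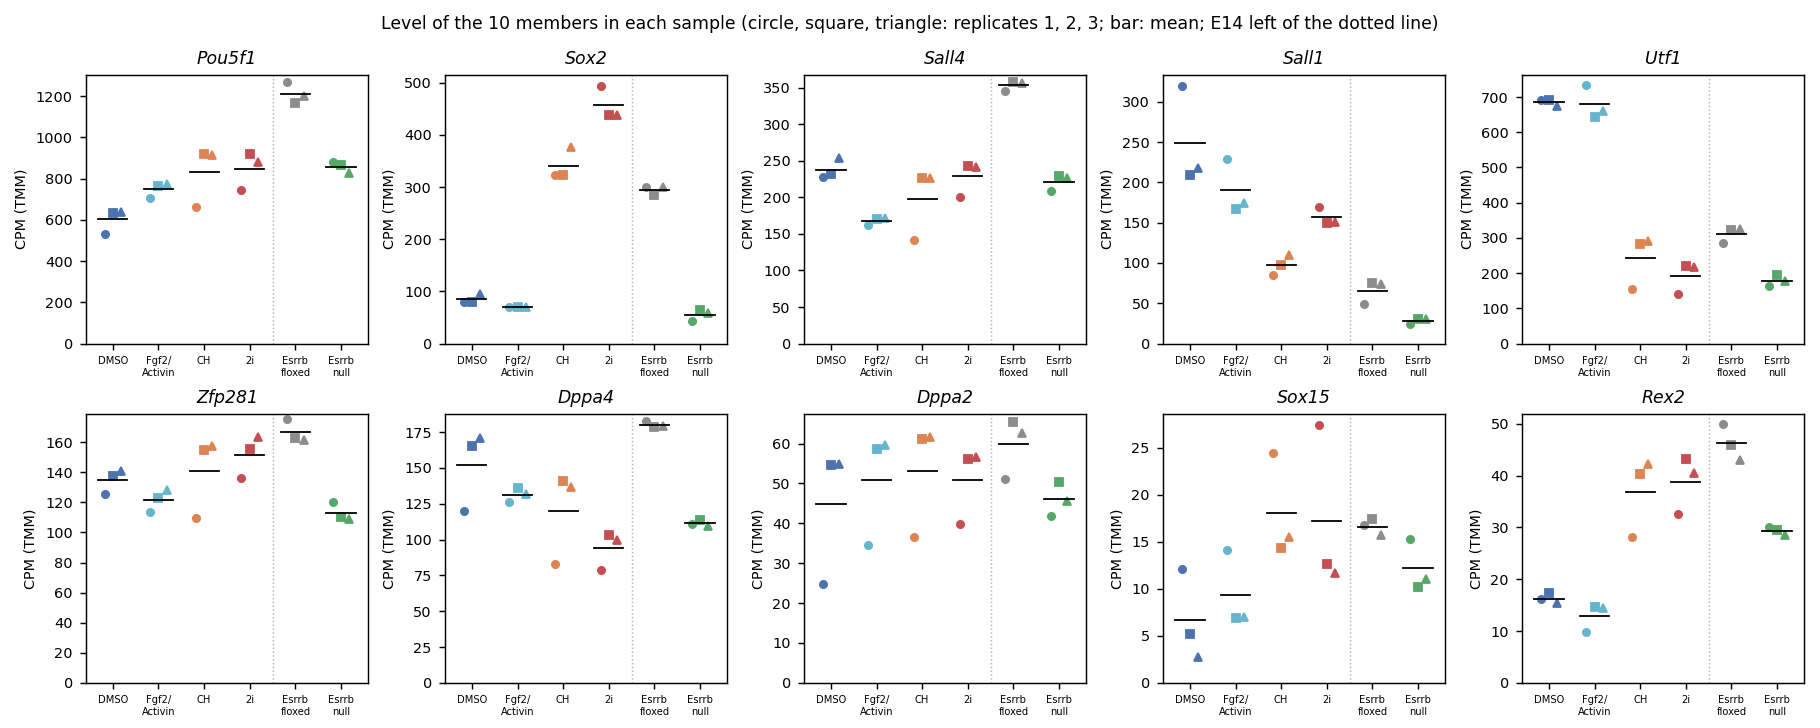
Level of each member in every sample, in CPM on a linear axis from 0, with replicates 1, 2 and 3 as circle, square and triangle and the group mean as a bar; the E14 cultures are left of the dotted line and the Esrrb fl/fl cells right of it. Sox2 and Rex2 were higher in all CH and 2i samples than in all DMSO and Fgf2/Activin samples, Utf1 was lower, and the Esrrb null samples lay below the Esrrb floxed samples for all 10 genes.

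To ask how the pair at the centre of the network behaves when Gsk3 is inhibited, Sox2 and Pou5f1 were compared between CH and DMSO. Sox2 (ENSMUSG00000074637, chr3:34650405-34652461, a gene of 1 exon that lies within the noncoding gene Sox2ot) had 79.4, 79.6 and 94.7 CPM in DMSO and 324, 324 and 376 CPM in CH. All CH samples lay above all DMSO samples, and the level rose 4.04-fold (log2 fold change 2.01 ± 0.09 SE, n = 3, adjusted p = 6.66e-08, from edgeR by quasi-likelihood, Benjamini-Hochberg adjusted). Without replicate 1 of every group, the log2 fold change was again 2.01. Pou5f1 (ENSMUSG00000024406, chr17:35506018-35510772) had 533, 634 and 640 CPM in DMSO and 662, 921 and 916 CPM in CH. Here, too, no CH sample overlapped with DMSO, but the difference was small, with a log2 fold change of 0.47 ± 0.13 that did not pass the test (edgeR adjusted p = 0.0130). Replicate 1 was the lowest in both groups, at 0.836 (DMSO) and 0.720 (CH) times the mean of the other samples, and widened the spread. Pou5f1 shares 14.1% of its exon bases with the antisense gene Gm19553, and reads of such pairs cannot be told apart in counts made without strand. Sall4 shares 9.50% of its exon bases with Gm14261 on the opposite strand, and Sox15 shares 3.60% with Mpdu1.

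Called changes are those with an adjusted p under 0.01 and a log2 fold change above 1 or below -1. Between CH and DMSO, 2 of the 10 members were called higher, Sox2 and Rex2, and 2 lower, Utf1 and Sall1, where 7.51% of the 16413 genes tested were called higher and 10.2% lower. The median log2 fold change was 0.15 over the members and -0.00220 over all genes tested. DESeq2 and the fit without a minimum fold change gave the same numbers, 2 higher and 2 lower.

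Utf1 (ENSMUSG00000047751, chr7:139943789-139945112) had 690, 692 and 674 CPM in DMSO. In CH its levels were 156, 282 and 290 CPM, all below the DMSO samples. The gene fell by 1.499 ± 0.22 on the log2 scale (edgeR adjusted p = 0.000287) and, without replicate 1, by 1.25. Sall1 (ENSMUSG00000031665, chr8:89027235-89044162) had 319, 209 and 218 CPM in DMSO and 84.5, 97.2 and 110 CPM in CH. It fell by 1.36 ± 0.17 on the log2 scale (edgeR adjusted p = 0.000111), and by 1.04 without replicate 1, which held the highest DMSO level and the lowest CH level. Sall4 (ENSMUSG00000027547, chr2:168748332-168767943), its relative, had 228, 233 and 253 CPM in DMSO and 141, 227 and 226 CPM in CH. These groups are close and the log2 fold change of -0.26 did not pass (95% confidence interval -0.60 to 0.08, edgeR adjusted p = 0.193).

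Rex2 (ENSMUSG00000067919, chr4:147021850-147060794) was at 16.1, 17.3 and 15.3 CPM in DMSO and 28.2, 40.4 and 42.2 CPM in CH. It rose by 1.18 ± 0.19 on the log2 scale (edgeR adjusted p = 0.000474), and by 1.34 without replicate 1. The transcripts of 7 other zinc finger genes share stretches with Rex2 that span 75 bases or more and are 95% or more identical, the longest with Zfp978 (1214 bases) and the closest with Zfp600 (573 bases at 99.5%). How such reads were divided is not known, and the level of Rex2 is uncertain to that extent. Of these 7 genes, 3 were called higher in CH and none lower, with log2 fold changes from 0.33 to 1.74.

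Sox15 (ENSMUSG00000041287, chr11:69655314-69656727) had 12.1, 5.23 and 2.70 CPM in DMSO and 24.5, 14.4 and 15.5 CPM in CH. Replicate 1 was the highest in both groups, 3.06 times the mean of the other DMSO samples and 1.64 times that of the other CH samples. The log2 fold change of 1.43 ± 0.53 did not pass (edgeR adjusted p = 0.0480). It passed in a fit with a replicate block, with a log2 fold change of 1.57 ± 0.21 (edgeR adjusted p = 7.86e-05), and without replicate 1 of every group, with 1.89 (adjusted p = 5.34e-07). The call for Sox15 depends on how replicate 1 is treated.

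Zfp281, Dppa4 and Dppa2 overlapped between CH and DMSO. Zfp281 (ENSMUSG00000041483, chr1:136624901-136630053) had 125 to 141 CPM in DMSO and 109 to 158 CPM in CH, a log2 fold change of 0.06 with a 95% confidence interval of -0.22 to 0.34. Dppa4 (ENSMUSG00000058550, chr16:48283733-48294237) had 120 to 171 CPM in DMSO and 82.6 to 141 CPM in CH, a log2 fold change of -0.34 with an interval of -0.77 to 0.09. Dppa2 (ENSMUSG00000072419, chr16:48303908-48319723) had 24.9 to 54.9 CPM in DMSO and 36.7 to 61.5 CPM in CH, a log2 fold change of 0.25 with an interval of -0.46 to 0.96. Same-numbered samples differed in 1 direction for Dppa4 and Dppa2, Dppa4 being lower and Dppa2 higher in CH in all 3 pairs. With a replicate block their log2 fold changes were -0.36 ± 0.11 and 0.28 ± 0.10 (edgeR adjusted p = 0.0136 and 0.0349), so neither was called. Copies of these genes elsewhere in the genome share long stretches, 906 bases at 99.3% identity between Dppa2 and Gm9788 and 735 bases at 98.9% between Dppa4 and Gm14058, so part of their reads may have been counted elsewhere or left out.

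Transcripts of mesendoderm, the tissue of the primitive streak, differed between the same cultures. The summed level of 6 mesendoderm markers was 442 to 672 CPM in CH, 8.97 to 14.2 CPM in DMSO, 83.6 to 118 CPM in 2i and 11.7 to 17.7 CPM in Fgf2/Activin. Of the 4 markers tested, T, Mixl1 and Foxa2 were called higher in CH and Eomes lower, and none of the 6 was at 0 in all samples of a group. T alone had a mean of 534 CPM in CH. Whether these transcripts came from mesendoderm cells, and the part of any such cells in the levels of Sox2, Utf1, Sall1 and Rex2, was not tested. Primitive endoderm markers summed to 1.68 to 10.6 CPM over all samples and fibroblast markers to 2.41 to 50.4 CPM, with Lum at 0 in DMSO. Trophoblast markers summed to 73.7 to 117 CPM in CH and 15.8 to 20.2 CPM in DMSO. Most of the CH sum was Cdx2, with a mean of 63.8 CPM against 0.0932 CPM in DMSO. Cdx2 and Tfap2c were called higher in CH, and Eomes, which is in this list too, lower. Neuroectoderm markers, which include Sox3, summed to 8.62 to 29.3 CPM in CH and 71.0 to 208 CPM in DMSO, and only Sox3 was called, lower in CH.

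**Figure D2:**
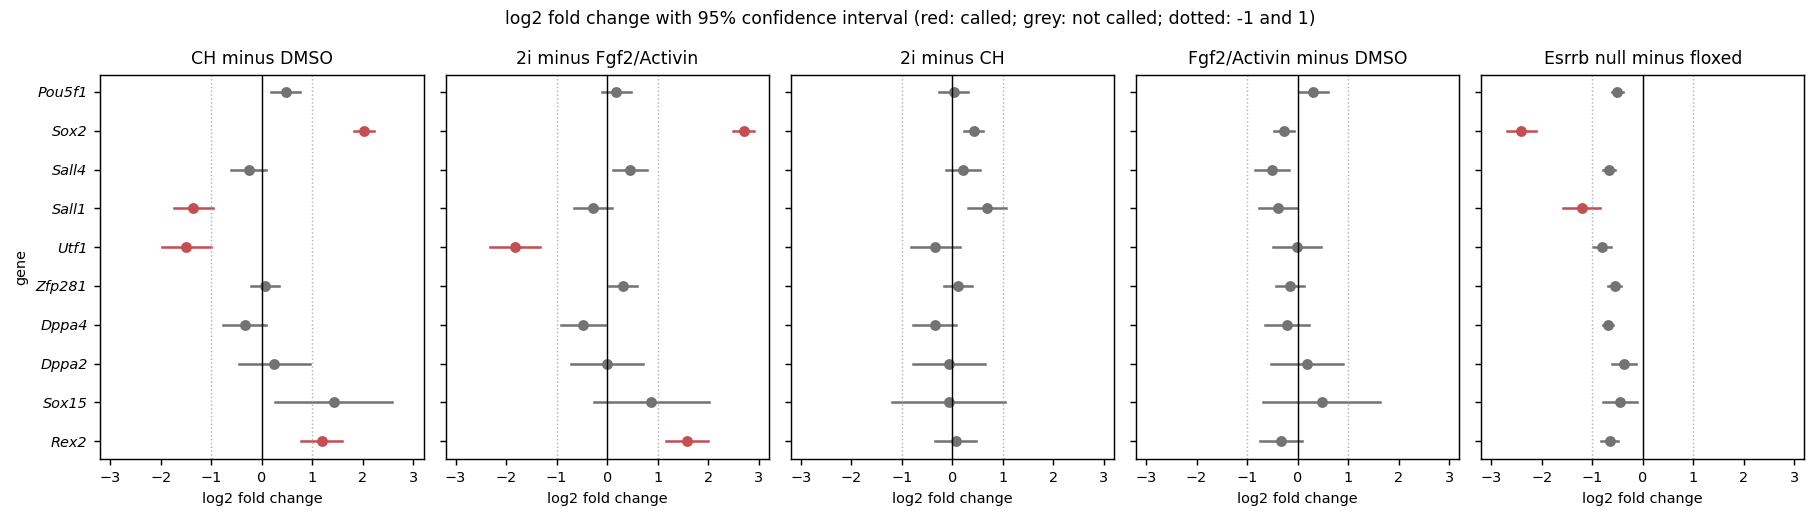
log2 fold change of each member with its 95% confidence interval in the 5 comparisons, red where called and grey where not; dotted lines mark -1 and 1. Between CH and DMSO and between 2i and Fgf2/Activin intervals lie on both sides of 0, and all intervals lie below 0 between Esrrb null and Esrrb floxed cells.

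As the media that hold cells in the naive and in the primed state, 2i and Fgf2/Activin were compared next. Sox2 and Rex2 were higher in 2i and Utf1 lower, which is 2 of 10 members called higher and 1 lower, with 9.13% and 14.4% of all genes tested called in these directions. Sox2 had 493, 438 and 439 CPM in 2i and 69.7, 70.4 and 70.6 CPM in Fgf2/Activin, where its 3 samples were almost identical. It rose 6.50-fold (log2 fold change 2.70 ± 0.09, edgeR adjusted p = 1.30e-08), and without replicate 1 the log2 fold change was 2.64. Utf1 had 140, 220 and 217 CPM in 2i and 734, 644 and 660 CPM in Fgf2/Activin. It fell by 1.82 ± 0.22 on the log2 scale (edgeR adjusted p = 5.16e-05) and by 1.57 without replicate 1. Rex2 had 32.6, 43.3 and 40.4 CPM in 2i and 9.87, 14.6 and 14.5 CPM in Fgf2/Activin. It rose by 1.58 ± 0.19 on the log2 scale (edgeR adjusted p = 4.48e-05), by 1.53 without replicate 1, and 6 of the 7 genes that share sequence with it were called higher too.

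The remaining 7 members were not called between 2i and Fgf2/Activin. Sall1 had 170, 149 and 150 CPM in 2i and 229, 167 and 175 CPM in Fgf2/Activin, so the groups overlapped, and the log2 fold change was -0.28 (95% confidence interval -0.66 to 0.10, edgeR adjusted p = 0.195). For Pou5f1 the levels were 745, 920 and 883 CPM in 2i and 706, 766 and 772 CPM in Fgf2/Activin, with a log2 fold change of 0.18 (interval -0.10 to 0.47). Sall4 and Zfp281 were higher in all 2i samples and Dppa4 lower, with log2 fold changes of 0.45, 0.32 and -0.48 and edgeR adjusted p-values of 0.0314, 0.0579 and 0.0602. Sox15 at 0.88 had an interval of -0.26 to 2.02. With a replicate block its log2 fold change was 0.86 ± 0.20 (edgeR adjusted p = 0.00320), short of the minimum of 1. The levels of Dppa2, 50.8 and 50.9 CPM on average, were nearly equal with an interval from -0.71 to 0.70.

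With the Mek inhibitor added to CH, 0 of the 10 members were called, with edgeR and with DESeq2, where 0.317% of genes were called higher in 2i than in CH and 1.67% lower. At an unadjusted p under 0.05, 2 of the 10 members passed, against 19.7% of all genes tested. Sox2 was higher in all 2i samples, with a log2 fold change of 0.42 ± 0.09 (edgeR adjusted p = 0.0145). Sall1, which was lowest in CH, was 0.69 ± 0.17 higher in 2i on the log2 scale (edgeR adjusted p = 0.0359). Fgf2/Activin and DMSO also gave 0 called members with both tools, with 0.902% and 0.347% of genes called higher and lower in Fgf2/Activin, and 4 of the 10 members had an unadjusted p under 0.05, against 16.9% of all genes. Those 4 were Pou5f1, at a log2 fold change of 0.31, and Sox2, Sall4 and Sall1, at -0.27, -0.50 and -0.39.

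The order of the 4 E14 cultures differed between members. Sox2 followed 2i, CH, DMSO, Fgf2/Activin, and only the step from CH to DMSO had an edgeR adjusted p under 0.01 among its neighbours. Rex2 had the same order and the same single step. Utf1 followed DMSO, Fgf2/Activin, CH, 2i, and its only such step was from Fgf2/Activin to CH, with a log2 fold change of 1.49 (edgeR adjusted p = 0.000293). No neighbours reached this for the other 7 members. Among pairs of cultures that were not neighbours, Sall1 was lower in CH than in Fgf2/Activin, with a log2 fold change of -0.97 (edgeR adjusted p = 0.000997). Pou5f1 was 0.50 higher in 2i than in DMSO on the log2 scale and Sall1 0.67 lower (edgeR adjusted p = 0.00815 and 0.00760). All of these were short of a log2 fold change of 1. From the lowest to the highest culture mean, Sox2 ranged 6.50-fold, Utf1 3.57-fold, Rex2 2.99-fold, Sox15 2.71-fold and Sall1 2.56-fold. The range was 1.62-fold for Dppa4, 1.42-fold for Sall4, 1.41-fold for Pou5f1, 1.25-fold for Zfp281 and 1.19-fold for Dppa2.

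Per kb of exon, the members also differed widely from each other. Utf1 was the most abundant member in DMSO and Fgf2/Activin, at 559 and 554 CPM per kb, ahead of Pou5f1 at 268 and 333 CPM per kb. In CH and 2i Pou5f1 came first, at 370 and 378 CPM per kb, where it ranked number 98 among the 12891 and 12591 genes with a mean of at least 1 CPM. Sox2 moved from number 1286 of 13069 genes in DMSO to number 242 in CH. Rex2 was the lowest member in all 4 E14 cultures, at 2.98 to 8.91 CPM per kb.

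A ratio of counts per kb within a library needs no scaling between libraries. Pou5f1 exceeded Sox2 by 6.14, 7.29 and 6.18 times in DMSO and by 9.26, 9.96 and 10.002 times in Fgf2/Activin. In CH the ratio was 1.87, 2.60 and 2.23, and in 2i 1.38, 1.92 and 1.84. Samples of CH and 2i all lay below those of DMSO and Fgf2/Activin. Sox3, the other SOXB1 gene detected at more than a trace, moved opposite to Sox2. Of the counts per kb on Sox1, Sox2 and Sox3, Sox2 held 47.9% to 65.3% in DMSO and 54.5% to 60.7% in Fgf2/Activin, but 98.3% to 99.0% in CH and 99.3% to 99.6% in 2i. The sum of the 3 genes was 78.6 ± 18.6 CPM per kb (SD, n = 3) in DMSO and 60.5 ± 3.94 in Fgf2/Activin, and 168 ± 14.4 in CH and 223 ± 15.1 in 2i. Every CH and 2i sample had a higher sum than every DMSO and Fgf2/Activin sample.

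**Figure D3:**
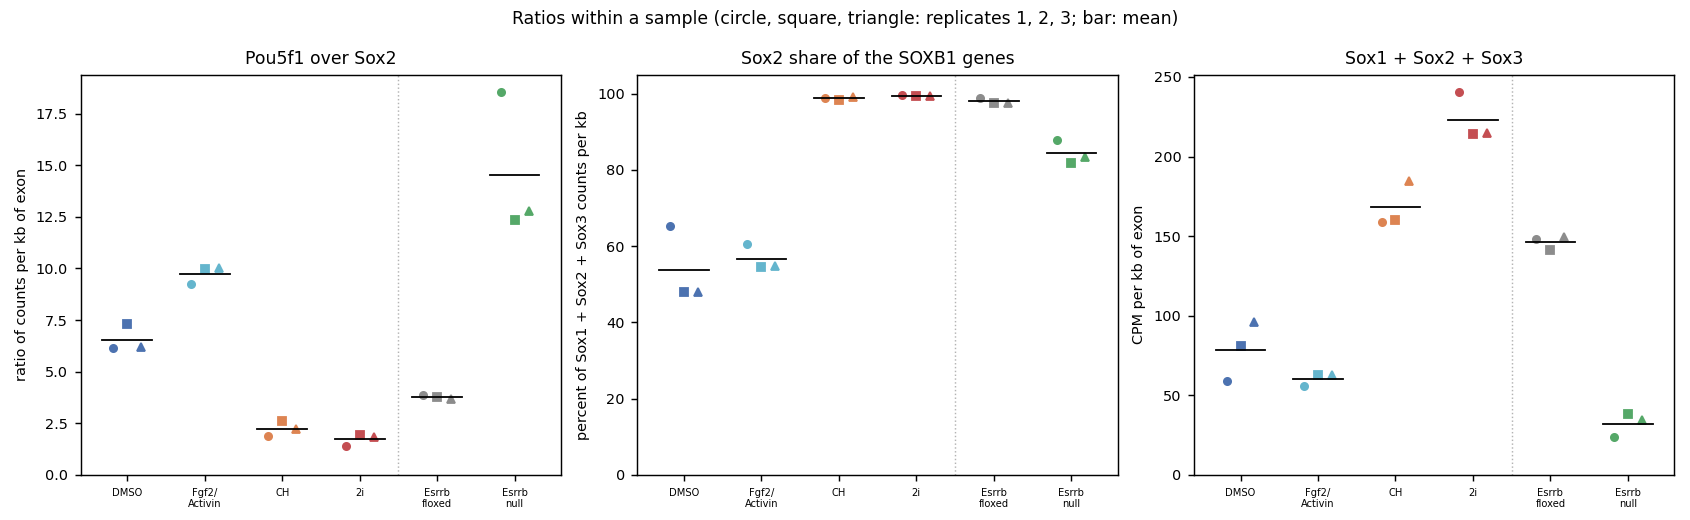
Ratio of Pou5f1 to Sox2 counts per kb, share of Sox2 in the counts per kb of Sox1, Sox2 and Sox3 in percent, and their summed level in CPM per kb, for each sample, with symbols and bars as in the plot of levels. In Fgf2/Activin the ratio lies at 9.26 to 10.002 and the share at 54.5% to 60.7%, whereas in 2i they lie at 1.38 to 1.92 and 99.3% to 99.6%.

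Other genes of the same families were listed as well, with the Dppa genes taken by their shared name and not as a protein family. Of 37 relatives (other SOX, POU, SALL and Dppa genes, and Zfp148), 32 passed the filter in E14, and 9 were called higher and 9 lower between CH and DMSO. Pou3f1, a POU factor of the primed epiblast, fell by 6.23 ± 0.54 on the log2 scale, from 150 to 1.99 CPM. Sall2 fell by 5.88 ± 0.43, from 141 to 2.38 CPM, and Sox3 fell by 4.15 ± 0.35, from 77.3 to 4.33 CPM. The edgeR adjusted p-values of the 3 were 6.92e-06, 2.13e-06 and 5.06e-06. Between 2i and Fgf2/Activin, 6 relatives were called higher and 12 lower. There Pou3f1 (log2 fold change -9.36) and Sall2 (-6.23) were lower in 2i, and Sall3 was higher, with 89.6 against 1.14 CPM and a log2 fold change of 6.31 (edgeR adjusted p = 5.60e-05). Only Sox11 was called between 2i and CH, lower by 1.63 on the log2 scale, and only Dppa5a between Fgf2/Activin and DMSO, higher by 1.58.

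**Figure D4:**
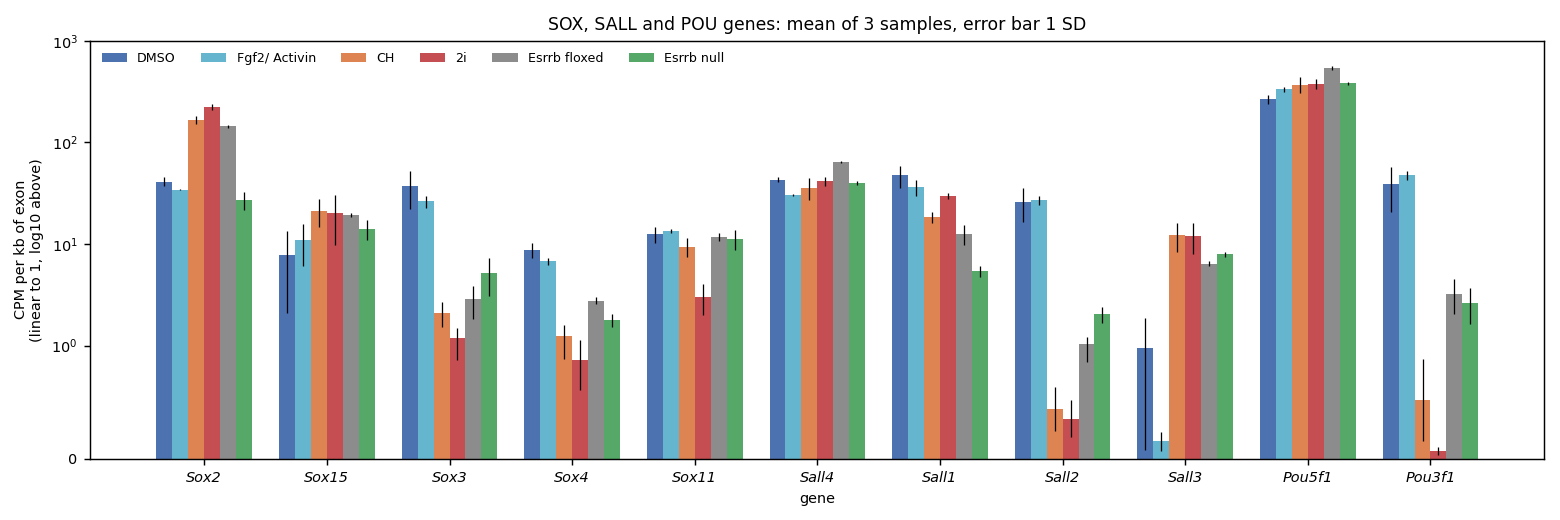
Mean level of SOX, SALL and POU genes in the 6 groups in CPM per kb of exon, with error bars of 1 SD (n = 3) and an axis that is linear up to 1 and log10 above. Sox3, Sall2 and Pou3f1 stand at 26.3 to 47.6 in Fgf2/Activin and at 0.0702 to 1.18 in 2i, and Sall3 shows the opposite order.

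Known targets and partners of the members were taken as lists. Of 9 listed genes with composite Oct4-Sox2 elements, 6 were called higher and none lower between CH and DMSO. They were led by Lefty1 (log2 fold change 5.15), Nanog (3.51) and Zfp42 (3.21). The median over the 9 was 1.97. The 3 not called were Tdgf1 (1.55), Zscan10 (-0.74) and Fgf4 (-0.90, edgeR adjusted p = 0.000678, short of the minimum fold). Members were left out of this list, among them Sox2, which was called higher, and Utf1, called lower. Between 2i and Fgf2/Activin, 5 were higher, among them Zfp42 (3.77), Spp1 (3.62) and Nanog (3.51), while Lefty1, also a target of Nodal and Activin signalling, was lower (-1.58). Fgf4 was the only one called between 2i and CH, with a log2 fold change of 1.36. Between Fgf2/Activin and DMSO, Lefty1 (7.26) and Dppa5a (1.58) were higher and Fbxo15 (-1.57) lower. Most of the 13 subunits of NuRD, the complex that Sall proteins recruit, were not called. Chd3 (1.98) and Rbbp7 (1.04) were higher in CH cultures, Chd3 (1.58) was higher in 2i than in Fgf2/Activin, and none was called between 2i and CH or between Fgf2/Activin and DMSO. The 12 listed genes of the 2-cell-like state that Dppa2 and Dppa4 are known to activate had almost no counts: none passed the filter, and the highest level in any sample was 0.520 CPM, for Zscan4d. Reads with several positions may have been left out, and sequence that these 12 genes share with others was not searched for. Called higher between CH and DMSO, and between 2i and Fgf2/Activin, were all 13 naive markers, and 6 of 8 formative and primed markers were lower in both. Nanog, Zfp42 and Dppa5a are in both the naive list and the list of Oct4-Sox2 targets, so these lists are not independent.

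To ask which members differ after deletion of Esrrb in CH, Esrrb null cells were compared with Esrrb floxed cells. Only the null cells received 4OHT, so effects of 4OHT or of active Cre cannot be told apart from loss of Esrrb. Esrrb itself had 58.9, 63.8 and 59.8 CPM in the null cells and 142, 110 and 109 CPM in the floxed cells, lower by 0.99 ± 0.10 on the log2 scale (edgeR adjusted p = 7.44e-05). Exons outside the deleted part are counted as well, so this level does not measure how many alleles were lost. For all 10 members the null samples lay below the floxed samples without overlap, whereas 31.5% of the 14893 genes tested were lower without overlap. At an adjusted p under 0.01 without a minimum fold change, 8 were lower, against 19.9% of genes. By the full criteria 2 were called lower, Sox2 and Sall1, and none higher, where 3.87% and 12.8% of genes were called in these directions. The median log2 fold change was -0.66 over the members and 0.00214 over all genes tested.

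Sox2 showed the largest difference of the 10. Its levels were 43.4, 64.3 and 59.2 CPM in Esrrb null cells and 301, 284 and 299 CPM in Esrrb floxed cells. It fell by 2.41 ± 0.12 on the log2 scale (edgeR adjusted p = 3.24e-06), to 0.189 times the floxed level, and fell by 2.24 without replicate 1. Sall1 had 24.4, 30.2 and 30.5 CPM against 49.0, 74.5 and 73.5 CPM. It fell by 1.21 ± 0.16 on the log2 scale (edgeR adjusted p = 0.000279), and by 1.29 without replicate 1. Both genes were called in the leave-one-out fits as well.

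The other members were lower by smaller and rather even amounts. Pou5f1 had 878, 866 and 825 CPM in the null and 1268, 1169 and 1199 CPM in the floxed cells, a log2 fold change of -0.50 ± 0.05 (edgeR adjusted p = 5.67e-05). Utf1 had 162, 194 and 177 CPM against 286, 321 and 327 CPM, a log2 fold change of -0.81 ± 0.08 (edgeR adjusted p = 4.33e-05). Sall4, with 208 to 230 against 346 to 357 CPM, and Dppa4, with 110 to 114 against 179 to 183 CPM, were lower by 0.67 and 0.69 on the log2 scale. Neither group overlapped with its counterpart, and neither fold reached the minimum. Zfp281 (-0.56) and Rex2 (-0.66) also had an edgeR adjusted p under 0.01, and the 7 genes that share sequence with Rex2 lay between -0.83 and -0.44. Dppa2, at -0.38 ± 0.10, and Sox15, at -0.45 ± 0.15, had adjusted p-values of 0.0127 and 0.0301. Without replicate 1 these were 4.73e-07 and 4.58e-06. That fit holds only replicates 2 and 3, whose chi-square per gene was 2.35 in null and 1.48 in floxed cells. Its smaller p-values rest on this narrow spread and are not stronger evidence.

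Pou5f1 exceeded Sox2 per kb by 3.86, 3.76 and 3.66 times in Esrrb floxed cells and by 18.5, 12.3 and 12.8 times in Esrrb null cells. The ratio in the null cells lay above that of every E14 sample. Sox2 held 97.5% to 98.7% of the SOXB1 counts per kb in floxed and 81.8% to 87.8% in null cells, where Sox3 had 10.7 ± 4.33 CPM (SD, n = 3) against 5.87 ± 2.09 CPM, and the SOXB1 sum was 32.2 ± 7.36 against 146 ± 4.16 CPM per kb. Of the 22 relatives tested, 3 were called higher and 3 lower, led by Sox7 (log2 fold change -3.17), Sox13 (-2.67) and Sox8 (2.15). Sox7 was near the floor, at 0.112 CPM in null and 1.06 CPM in floxed cells. Among the Oct4-Sox2 targets, Fgf4 fell by 2.25 and Spp1 by 1.41 on the log2 scale, and Lefty1 rose by 2.89. Of the NuRD subunits, Mbd2 was higher (1.45) and Chd3 lower (-1.30). Of 13 naive markers, 4 were called lower and none higher. Mesendoderm markers summed to 337 to 491 CPM in null and 52.9 to 76.1 CPM in floxed cells, with 2 of the 3 tested, T and Mixl1, called higher, and their part in the lower levels of the members was not tested.

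Last, the genes whose log2(CPM + 1) values were most like a member over the 12 E14 samples were listed for 4 members, out of 10471 genes with a mean of at least 5 CPM. For Sox2 they were Pip5k1b, Zfp975 and Il6st (the gp130 receptor subunit), with Pearson's r of 0.999, 0.996 and 0.995. Zfp600 (0.996), Zfp534 (0.993) and Gm13147 (0.991) were nearest to Rex2, and Zfp600 is one of the genes that share sequence with it. Crmp1 (0.991), Crocc2 (0.989) and Pdzd4 (0.988) were nearest to Utf1, and Slc39a4 (0.981), Wwc1 (0.964) and Tmc7 (0.960) to Sall1. The points share libraries, cultures and the shift of replicate 1, so these values describe likeness only. Among the members, Sox2 had an r of 0.948 with Rex2 and of -0.952 with Utf1.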

How the data were processed

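Poly(A) RNA of 18 samples was sequenced. Per the labels and the methods of the study, the authors aligned reads with TopHat2 to mm10, counted them on Ensembl genes of GRCm38 with HTSeq in its unstranded mode, and the deposited table holds whole-number counts for 49671 genes. The release and the handling of reads with several positions are not given in the sources used here.

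Counts were scaled by TMM and fitted with edgeR 4.0.16 (glmQLFit, glmQLFTest, filterByExpr) in R 4.3.3, with the 12 E14 samples in one fit and the 6 Esrrb fl/fl samples in another, and p-values were adjusted over all genes tested. The thresholds follow the study. CPM were computed with TMM library sizes. Symbols, positions and exon lengths came from GENCODE vM21 (GRCm38), promoters from RefSeq (GRCm38.p6), and shared sequence from blastn 2.17.0. Figures used matplotlib 3.10.9 in Python 3.11.15. Alternatives were DESeq2 1.42.0 (size factors, and its test), filters, no minimum fold change, only the 6 samples compared, the replicate number as a block, and samples left out.

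The fit was tested on simulated counts in which samples varied independently, without the shift of replicate 1 seen here. That test cannot show how the fit behaves with such a shift. Depth, given with the libraries, sets the precision of low genes, and standard errors include the spread between samples.

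Deviations from the group mean were correlated between samples of the same number in the labels. Over 18 pairs in E14, r was 0.374 to 0.821 (mean 0.560), and over 3 pairs in Esrrb fl/fl cells 0.266 or more. The main fits used group alone and ignored these numbers, which entered as a block only in an alternative fit. The correlation of same numbers rests on replicate 1. Replicate 2 of a group correlated with replicate 3 of another at 0.371 to 0.692 in E14 and 0.274 to 0.356 in Esrrb fl/fl cells. That was much as with its own number, whereas replicate 1 correlated with other numbers at -0.770 to -0.412 and -0.430 to -0.349. The blocked value is given where it changes a call, and for 3 members in which it lowered the error.

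The members and lists were chosen with earlier results of these data known. Named genes are all members, up to 3 called genes with the largest change and at least 1 CPM per list and comparison, the 3 genes most like each of 4 members, and Esrrb. Some genes were chosen after their values were seen. They are those named for shared or overlapping sequence, those in the plot of families and the marker genes T, Mixl1, Foxa2, Eomes, Cdx2, Tfap2c and Lum.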

Additional observations from a re-analysis of the deposited data

How the results depend on the processing

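The members called between CH and DMSO numbered 4 to 5 over all alternatives, between 2i and Fgf2/Activin 3 and between 2i and CH or Fgf2/Activin and DMSO 0. Between Esrrb null and Esrrb floxed cells they numbered 2, and 8 with no minimum fold change. Sox15 between CH and DMSO became called with the replicate block (log2 fold change 1.57), without DMSO replicate 1 (2.18) and without replicate 1 of every group (1.89), the last chosen after seeing the data. The block changed no other call.

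Signs turned only for differences near 0, none of them called. Without a filter on low counts, Dppa2 between 2i and Fgf2/Activin was at 7e-04 (0.0236 with the block) and Utf1 between Fgf2/Activin and DMSO at 4e-04. Without replicate 1 of every group, Pou5f1 between 2i and CH was at -0.0249, Sall4 between 2i and DMSO at 0.0089 and Dppa4 between CH and Fgf2/Activin at 0.0540. With single samples left out, the log2 fold change of Dppa2 ranged from -0.0449 to 0.4565 (CH and DMSO), -0.2147 to 0.1512 (2i and Fgf2/Activin), -0.2712 to 0.0875 (2i and CH), -0.1050 to 0.4074 (Fgf2/Activin and DMSO), -0.1084 to 0.3593 (2i and DMSO) and -0.1553 to 0.2699 (CH and Fgf2/Activin). Zfp281 ranged from -0.0140 to 0.2136 (CH and DMSO) and -0.0424 to 0.1952 (2i and CH). Between 2i and CH, Pou5f1 ranged from -0.1129 to 0.1168, Sox15 from -0.5726 to 0.2052 and Rex2 from -0.0913 to 0.1837. Utf1 ranged from -0.0684 to 0.0252 (Fgf2/Activin and DMSO), Sall4 from -0.0932 to 0.0377 (2i and DMSO) and Dppa4 from -0.2583 to 0.0804 (CH and Fgf2/Activin). The cause was not tested.

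Over all genes, a minimum of 10 counts in every sample lowered the calls from 2907 to 1755 between CH and DMSO and from 3857 to 2332 between 2i and Fgf2/Activin, since fewer genes were tested. With no minimum fold change they were 4750 and 6193, and 6621 in place of 2485 for Esrrb. Between 2i and CH 326 genes were called, 597 with DESeq2, 100 with only the 6 samples compared, 672 with the block, 768 without replicate 1 of every group, and 144 to 275 with single samples left out. Between Fgf2/Activin and DMSO the corresponding numbers were 205, 374, 87, 424, 499 and 112 to 171. Sox15 had the lowest mean level of the members in every group, and its standard error between CH and DMSO was 0.53, or 0.21 with the replicate block.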
